A study of Homo sapiens with 10 samples.

Results

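The family of miR-103 and miR-107 was examined in small RNA libraries of ES-2, an established cell line from human ovarian cancer, grown in serum-containing medium. It consists of hsa-miR-103a-3p and hsa-miR-107, taken by name from the deposited table, and makes up 2 of its 2576 mature miRNA names. The table holds 2 rows for miR-103a-3p, which has 2 genomic copies, and 1 row for miR-107, and rows of the same name were summed. Cells had been transfected with siRNA pools against IGF2BP1 (siIGF2BP1, 2 libraries), IGF2BP2 (siIGF2BP2, 3 libraries) or IGF2BP3 (siIGF2BP3, 3 libraries), or with control siRNA (siC, 2 libraries). IGF2BP1 to IGF2BP3 are paralogous RNA-binding proteins, and the study concerns IGF2BP1 and repression of oncogenic mRNAs by miRNAs. All groups share 1 parental cell line, and dose and time after transfection are not given in the labels. Libraries held 462724 to 1269743 miRNA reads.

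Mature miRNAs guide Argonaute proteins to mRNAs that pair with their seed, bases 2 to 8. Both miRNAs arise from introns of pantothenate kinase genes, which serve coenzyme A synthesis. They are known for repressing DICER1, which encodes the enzyme that cuts miRNA hairpins, and in breast cancer cells this lowers the epithelial miR-200 family and favours migration. Neither DICER1 nor any other mRNA was measured here.

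The mature sequences are shown because a single base tells the members apart. They are RefSeq entries on GRCh38.p14, written 5′ to 3′ with the seed in capitals.
miR-103a-3p: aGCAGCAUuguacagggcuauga
miR-107: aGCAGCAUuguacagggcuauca
Counted from 1 at the 5′ end, the only substitution from miR-103a-3p to miR-107 was G22C. The first 21 of 23 bases were identical, so a read that ends before base 22 has the same sequence for both miRNAs. How such reads were placed is not given in the sources used here, and levels of miR-107 may therefore include reads of miR-103a-3p. Among the 2262 table names with a RefSeq sequence, these 2 alone carried this seed.

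The hairpins are shown with the mature miRNA in capitals, since the arms opposite it and the opposite DNA strand bear on what could be counted.
MIR107: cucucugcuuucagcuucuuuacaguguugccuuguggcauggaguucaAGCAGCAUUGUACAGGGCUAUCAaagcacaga
MIR103A1: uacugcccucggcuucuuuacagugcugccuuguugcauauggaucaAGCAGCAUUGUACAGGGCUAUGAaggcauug
MIR103A2: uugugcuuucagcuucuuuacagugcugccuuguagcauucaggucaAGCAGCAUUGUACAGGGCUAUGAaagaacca
In GENCODE release 29, MIR107 lies on the same strand as PANK1 on chromosome 10, in an intron of every transcript. MIR103A1 lies likewise in PANK3 on chromosome 5 and MIR103A2 in PANK2 on chromosome 20. At both miR-103a loci, and not at MIR107, another miRNA is annotated on the opposite strand, namely miR-103b.
miR-103b: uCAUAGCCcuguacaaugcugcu
All 23 bases of miR-103b are the reverse complement of miR-103a-3p, and the annotated intervals coincide at both loci.

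miR-103a-3p was listed at 0 in all 10 libraries, in both of its rows. Its antisense counterpart miR-103b was also listed at 0 in every library. The value of each library was thus 0 for siIGF2BP1, siIGF2BP2, siIGF2BP3 and siC alike, and no fold change, test or ratio to miR-107 could be computed. At a count of 0, counting error alone would allow up to 0.000236% to 0.000648% of the reads per library by a floor of 3 reads, and up to 0.000291% to 0.000797% by the exact Clopper-Pearson 95% interval. These limits apply to what was counted in these rows and are no estimate of the miRNA in the cells. In the authors' deposited table, the fold change of miR-103a-3p is likewise entered as 0 in each of the 3 comparisons with siC.

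Zeros were more frequent wherever the annotation places a mature miRNA on both strands. This set was chosen after the zeros of miR-103a-3p had been seen, includes it and miR-103b, and is described without a test. Many of its members are each other's opposite-strand partners and so are not separate observations. The classes compared were not matched for abundance. Of the 72 miRNAs with an opposite-strand mature miRNA at every locus (overlaps of 18 to 23 bases), 69 (95.8%) were listed at 0 in all libraries. Without such an overlap, 1124 of 2185 (51.4%) were listed at 0. None of the 72 reached a mean normalised read count of 10, against 270 (12.4%) of the 2185. The 3 overlapped miRNAs that were read, miR-3074-3p, miR-3065-3p and miR-3130-3p, had 1 or 2 reads over all libraries.

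The zeros included both arms of miR-423, which many human cell types contain, and miR-374b-5p. miR-24-3p, which is overlapped at only 1 of its 2 loci, had 59 to 131 reads per library in 1 row and 0 in the other. A row at 0 beside a read row was not restricted to such miRNAs, since 22 of 78 read names with several rows had one. Whether strand was used in counting is not given in the sources used here, and its part in the zeros was not tested.

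**Figure D1:**
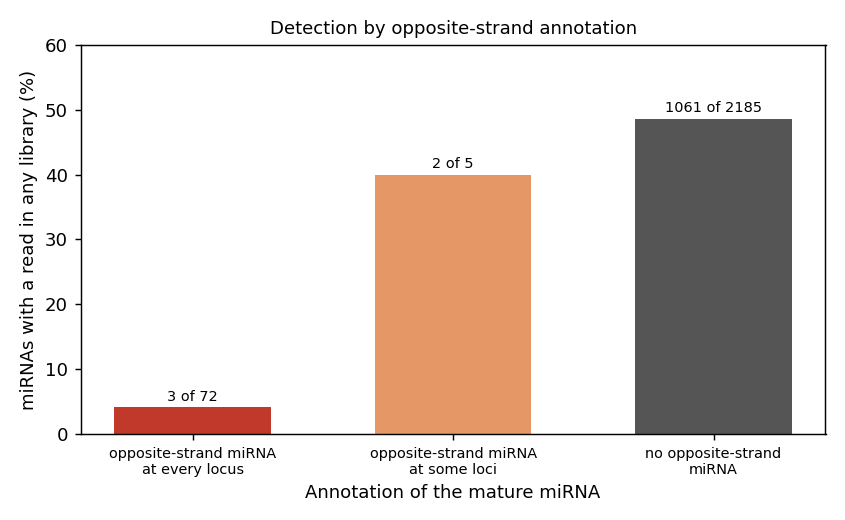
Share of mature miRNAs with a read in any library (y axis, %) by whether an opposite-strand mature miRNA is annotated at every locus, at some loci or at none (x axis), with counts above the bars. A read was found for 3 of 72 miRNAs overlapped at every locus, the class of miR-103a-3p, and for 1061 of 2185 without an overlap, the class of miR-107.

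Of the passenger arms of these hairpins, the table lists only that of MIR103A2. miR-103a-2-5p, the arm opposite miR-103a-3p, had 1 read in each of 4 libraries, namely siIGF2BP1 replicate 2, siIGF2BP2 replicate 2 and siIGF2BP3 replicates 2 and 3, and 0 in the others. A single read does not tell libraries apart. miR-103a-1-5p was not analysed here.

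miR-107 was read in every library and lay at a similar level in all of them. Its values are normalised read counts made by the authors, from which whole reads could be recovered. The siIGF2BP1 libraries had 483 and 599, the siIGF2BP2 libraries 615, 609 and 603, the siIGF2BP3 libraries 609, 635 and 532, and the siC libraries 558 and 530. The lowest and the highest of the 10 values differed 1.32-fold. The 2 siIGF2BP1 libraries lay on either side of both siC libraries, and the siIGF2BP3 libraries overlapped the siC range. The 3 siIGF2BP2 libraries lay above both siC libraries, and how many of all miRNAs separate in this way was not counted.

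These values rest on 601 and 679 reads in siIGF2BP1, 435, 319 and 349 in siIGF2BP2, 305, 537 and 447 in siIGF2BP3, and 338 and 398 in siC. As a share of all miRNA reads, miR-107 took 0.0473% (exact Clopper-Pearson 95% interval 0.0436% to 0.0513%) in siIGF2BP1 replicate 1 and 0.0620% (0.0574% to 0.0668%) in replicate 2. These intervals, which cover counting error only, did not overlap, so the spread within siIGF2BP1 exceeded counting error. Over all groups the chi-square of miR-107 between libraries of a group was 5.10 per degree of freedom, and the median was 4.96 among the 44 miRNAs with a mean value within 2-fold of its own. Its SD within groups, 0.12 on the log2 scale, compares with a median of 0.16 for those miRNAs.

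**Figure D2:**
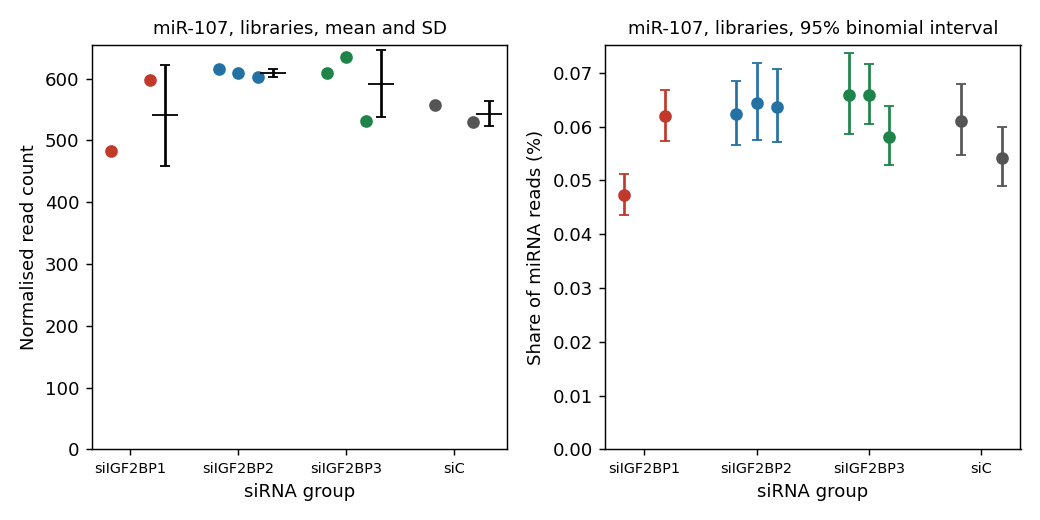
Left, normalised read count of miR-107 (y axis, from 0) in each library by siRNA group (x axis), with the group mean and SD as bars beside the points. Right, its share of miRNA reads (y axis, %, from 0) with exact 95% binomial intervals. The siIGF2BP2 libraries lie at 603 to 615, the siC libraries at 530 and 558, and siIGF2BP1 holds the lowest value, 483.

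In order of group means, miR-107 averaged 609 ± 6.41 in siIGF2BP2 (SD, n = 3), 592 ± 53.9 in siIGF2BP3 (SD, n = 3), 544 ± 19.7 in siC (SD, n = 2) and 541 ± 81.8 in siIGF2BP1 (SD, n = 2). Each neighbouring pair in this order overlapped in its single values. Since the labels do not tie replicates to separate cultures, the p-values below cover the variation among these libraries alone, and part of it may be technical.

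After IGF2BP1 knockdown, miR-107 had a log2 fold change against siC of -0.02 ± 0.15 (SE, limma adjusted p = 1). Here and below, differences are on the log2(value + 1) scale, p-values are adjusted over all 889 miRNAs tested, and a miRNA is called at an adjusted p under 0.05. The 95% interval ran from 0.792-fold to 1.24-fold. Of all miRNAs tested, 2.47% were called, and miR-107 was not among them. Among the 313 miRNAs with a mean value of at least 10, 7 had a fold change closer to 0. Their median was 0.16, so that relative to it miR-107 lay at -0.17. Rescaling by TMM moved that median to -0.05 and the fold change of miR-107 to -0.22 (limma adjusted p = 0.675), which is -0.17 relative to the median. The sign rested on single libraries, since the fold change was 0.14 without siIGF2BP1 replicate 1, -0.17 without replicate 2 and 0.02 without siC C2.

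After IGF2BP2 knockdown the log2 fold change of miR-107 against siC was 0.16 ± 0.13 (SE, limma adjusted p = 0.637), with a 95% interval of 0.915-fold to 1.37-fold. The values of the 2 groups did not overlap, but for how many of all miRNAs this also holds was not counted. Of all miRNAs tested, 9.00% were called, and miR-107 was not among them. After IGF2BP3 knockdown it was 0.12 ± 0.13 (SE, limma adjusted p = 0.706), with an interval of 0.887-fold to 1.33-fold, where 10.6% of all miRNAs were called. The medians of the 313 miRNAs were 0.04 and 0.08 in these comparisons, both of which use the same 2 siC libraries. Rescaling by the upper quartile moved the medians to 0.52 and 0.67, and with them miR-107 to 0.64 (limma adjusted p = 0.013) and 0.71 (limma adjusted p = 0.00455). Relative to the median, miR-107 then stood 0.13 and 0.05 higher, against 0.13 and 0.04 as deposited.

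In the labels, the source name of siIGF2BP2 and siIGF2BP3 differs from that of siIGF2BP1 and siC, and no group has samples under both names. This difference and the knockdown therefore cannot be told apart in siIGF2BP2 or siIGF2BP3 against siC. Some markers moved with it. The 31 listed miRNAs of the imprinted 14q32 cluster took 0.156% to 0.418% of the reads in siIGF2BP1 and siC, with 27 to 30 of them read, and 0.000859% to 0.00182% in siIGF2BP2 and siIGF2BP3, with 4 or 5 read. The 8 blood cell miRNAs together took overlapping shares of 0.0439% to 0.122% in siIGF2BP1 and siC and 0.0440% to 0.163% in siIGF2BP2 and siIGF2BP3, most of it miR-142-5p, and miR-486-5p was at 0 throughout. Some single members were lower under the source name of siIGF2BP2 and siIGF2BP3, but not all. The means of miR-142-3p and miR-142-5p were higher in siIGF2BP2 and siIGF2BP3 than in siIGF2BP1 and siC, and neither was called. For miR-142-3p they were 82.9 ± 78.7 in siIGF2BP3 (SD, n = 3) and 35.6 ± 3.30 in siC (SD, n = 2). Of these 8, 6 or 7 were read in siIGF2BP1 and siC and 2 to 5 in siIGF2BP2 and siIGF2BP3, and 3 of the 7 tested were called lower by limma both in siIGF2BP2 and in siIGF2BP3 against siC. They were miR-451a, miR-144-3p and miR-144-5p. For comparison, 7.76% of all miRNAs tested were called lower in siIGF2BP2 against siC. In siIGF2BP3 against siC, 10.6% were called in either direction. miR-144-3p was at 0 in every siIGF2BP2 and siIGF2BP3 library, against a mean of 37.0 ± 36.1 in siC (SD, n = 2). Among 7 epithelial miRNAs, miR-375 took nearly all reads in siIGF2BP1 and siC, miR-429 was at 0 throughout, and the list took 0.00150% to 0.0374% there and 0.000245% to 0.00130% in the other libraries. That difference was one of miR-375. The miR-200 family in this list averaged 0.000717% in siIGF2BP2 and 0.000745% in siIGF2BP3. It averaged 0.000209% in siIGF2BP1 and 0.000271% in siC, with at most 7 reads in any library. In such bulk samples, fewer cells of a type and less RNA per cell cannot be told apart. Their part in the values of miR-107 was not tested.

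Within the shared source name, siIGF2BP2 against siIGF2BP3 gave a log2 fold change of 0.05 ± 0.12 (SE, limma adjusted p = 1), an interval of 0.861-fold to 1.24-fold. Of all miRNAs tested, 3.15% were called. Leaving out siIGF2BP3 replicate 3, the lowest of its group, turned the sign, to -0.03.

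The share of reads does not depend on the scaling between libraries, and since miR-103a-3p was listed at 0, the share of the pair is that of miR-107. It was 0.0546% ± 0.0103 in siIGF2BP1 (SD, n = 2), 0.0635% ± 0.00100 in siIGF2BP2 (SD, n = 3), 0.0633% ± 0.00449 in siIGF2BP3 (SD, n = 3) and 0.0577% ± 0.00483 in siC (SD, n = 2). Two-sided exact permutation p-values against siC were 1, 0.2 and 0.4 in that order of knockdowns, and 1 between siIGF2BP2 and siIGF2BP3. Adjusted over these 4 exact tests they were 1, 0.8, 0.8 and 1. The smallest p-values these designs allow are 0.33 for 2 against 2 libraries, 0.2 for 3 against 2 and 0.1 for 3 against 3.

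**Figure D3:**
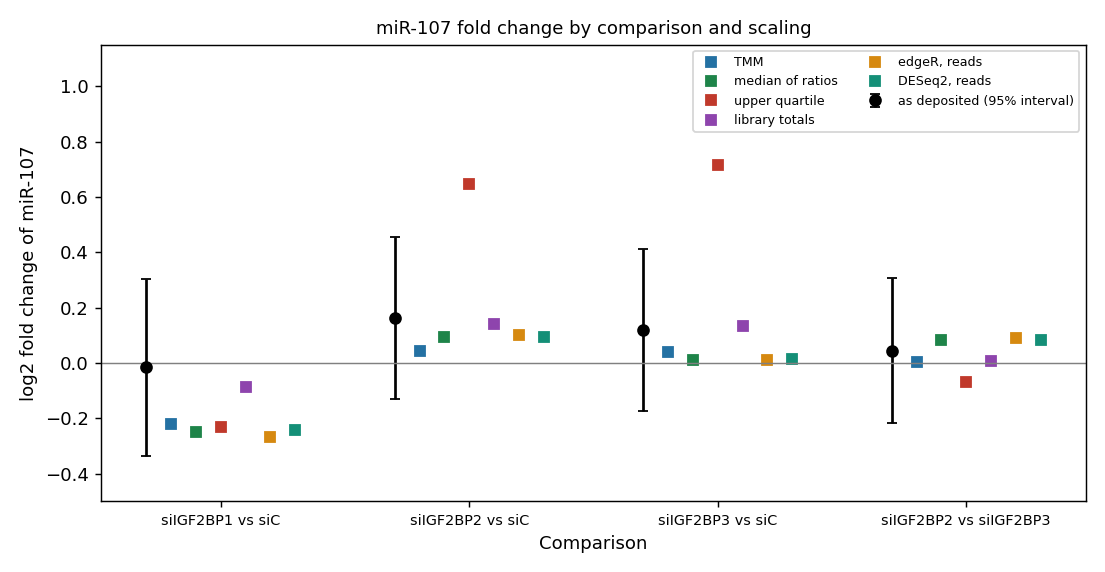
Log2 fold change of miR-107 (y axis) in 4 comparisons (x axis), as deposited with its 95% interval (black) and under other scalings and count tests (coloured squares). Every interval as deposited spans 0, and the upper-quartile points of siIGF2BP2 and siIGF2BP3 against siC stand apart at 0.64 and 0.71.

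For miR-107 the authors' deposited table gives log2 fold changes of -0.01, 0.16 and 0.12 for siIGF2BP1, siIGF2BP2 and siIGF2BP3 over siC, each with a false discovery rate of 1.

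Ranked by mean share of reads, miR-107 was number 72 of the 2576 names, and between 67 and 82 in single libraries. Directly above it stood miR-30e-3p at 0.0618% ± 0.00825 (SD, n = 10 libraries) and directly below it miR-345-5p at 0.0595% ± 0.0133 (SD, n = 10 libraries), against 0.0605% ± 0.00584 for miR-107. All 3 ranges over the libraries overlapped. Differences between these miRNAs within single libraries were not compared, so whether their ranks are distinct was not tested. Differences in ligation between miRNAs were not corrected, and a share need not equal a molar amount.

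Over the 10 libraries the profile of miR-107 varied little. The measure used here necessarily places such a profile nearest to others that varied little. Likeness was the root mean square difference between log2(value + 1) profiles, each centred on its own mean, over 312 miRNAs with a mean value of at least 10. The 5 nearest were miR-30d-5p (0.12), miR-767-5p (0.13), miR-30b-5p (0.13), miR-125b-2-3p (0.14) and miR-92a-3p (0.14), where the median of all compared was 0.39. They cover a wide range of abundance, with mean values of 118 for miR-767-5p and 77256 for miR-92a-3p. All profiles share the same libraries and depths.

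Bases 1 to 7 of miR-107 are the seed of miR-16-5p, so that miRNAs with that seed read nearly the same target sites shifted by 1 base. In the miR-15/16 superfamily as listed here, miR-503-5p and miR-646 differ from that seed in its last base. The superfamily miRNAs are known for repressing cyclins and BCL2. Their sequences are shown, with seeds in capitals, for comparison with miR-107.
miR-16-5p: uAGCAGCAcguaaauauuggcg
miR-15b-5p: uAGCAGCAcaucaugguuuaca
miR-424-5p: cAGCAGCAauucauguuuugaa
miR-503-5p: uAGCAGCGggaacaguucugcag
The 9 listed members took 0.590% ± 0.0197 of the reads in siIGF2BP1 (SD, n = 2), 0.545% ± 0.0525 in siIGF2BP2 (SD, n = 3), 0.638% ± 0.0368 in siIGF2BP3 (SD, n = 3) and 0.535% ± 0.0435 in siC (SD, n = 2). Of the reads of this superfamily and miR-107 together, miR-107 made up 8.48% ± 1.73 in siIGF2BP1 (SD, n = 2), 10.5% ± 0.782 in siIGF2BP2 (SD, n = 3), 9.02% ± 0.385 in siIGF2BP3 (SD, n = 3) and 9.73% ± 0.0219 in siC (SD, n = 2). miR-16-5p held most of the rest, with 0.497% of all reads over the 10 libraries.

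**Figure D4:**
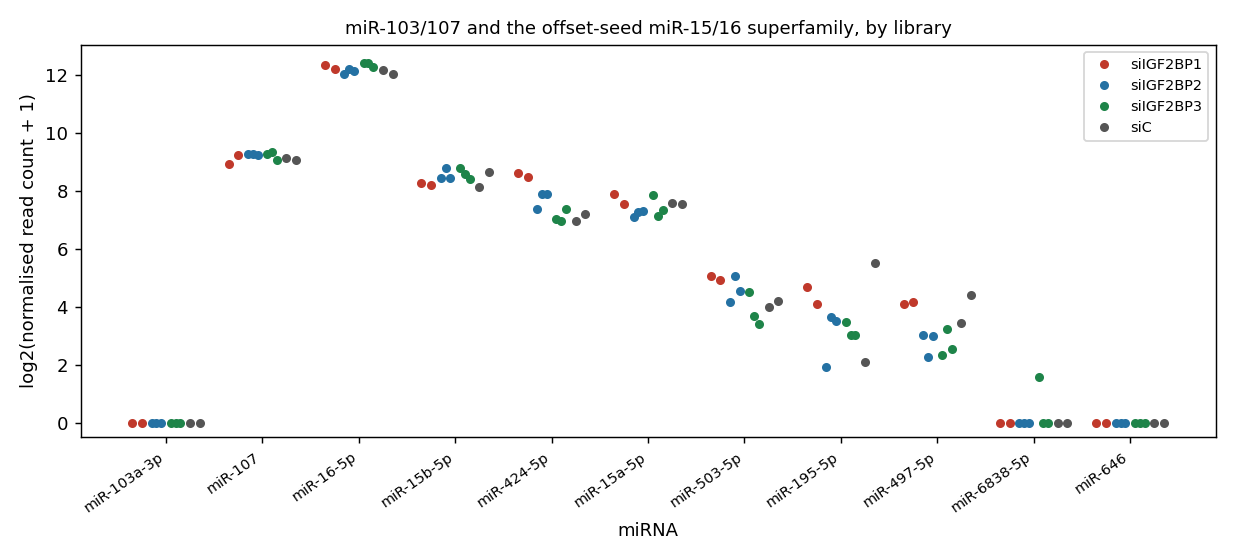
Level of the members and of the 9 superfamily miRNAs (x axis) as log2(normalised read count + 1) (y axis) in each library, coloured by siRNA group. miR-103a-3p and miR-646 lie at 0 in every library, miR-107 varies 1.32-fold in all, and the siIGF2BP1 values of miR-424-5p, 389 and 355, lie above those of the other libraries.

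Of the 9 superfamily miRNAs, 7 passed the filter on low values, and miR-646 and miR-6838-5p, with 0 reads and 1 read, did not. In siIGF2BP1 against siC, miR-424-5p, which is processed from a cluster on the X chromosome, rose, the only one called among the 7. Its values were 389 and 355 in siIGF2BP1, and it averaged 372 ± 23.7 there and 134 ± 14.2 in siC (SD, n = 2 each). The log2 fold change was 1.47 ± 0.22 (SE, limma adjusted p = 0.00363). That call was lost without siC C2 (limma adjusted p = 0.0634), without siIGF2BP1 replicate 1 (0.0658) and without replicate 2 (0.0716), while the fold change stayed between 1.36 and 1.58. Of all miRNAs tested, 2.14% were called higher. The median over the 7 was 0.20, beside 0.10 over all 889 miRNAs. miR-503-5p, from the same cluster, averaged 30.6 ± 2.15 in siIGF2BP1 and 16.1 ± 1.74 in siC (SD, n = 2 each) and was not called (limma adjusted p = 0.374).

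In the other comparisons 0 of the 7 were called by limma, where 9.00%, 10.6% and 3.15% of all miRNAs were called in siIGF2BP2 against siC, siIGF2BP3 against siC and siIGF2BP2 against siIGF2BP3. With 7 members, a count of 0 is near those shares. Their median log2 fold changes were 0.04 for siIGF2BP2 against siC, -0.13 for siIGF2BP3 against siC and -0.03 for siIGF2BP2 against siIGF2BP3, beside -0.03, 0.00 and 0.00 over all miRNAs tested. The lowest adjusted p among them was that of miR-424-5p in siIGF2BP2 against siC, 0.0739 (limma), at a log2 fold change of 0.64. miR-16-5p averaged 4920 ± 344 in siIGF2BP1, 4447 ± 288 in siIGF2BP2, 5237 ± 325 in siIGF2BP3 and 4329 ± 304 in siC (SD, n as above). The next most abundant apart from miR-424-5p, miR-15b-5p and miR-15a-5p, ranged from 279 to 439 and from 134 to 235 over the libraries.

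The let-7 family, growth-restraining miRNAs also reported to target DICER1, held 27.1% to 32.6% of the reads in each library. Its most abundant members were let-7a-5p, let-7i-5p, let-7f-5p and let-7g-5p, with mean values of 167317, 43854, 34740 and 16754. Of the 9 members, 0 were called in siIGF2BP1 against siC, 1 in siIGF2BP2 against siC, 0 in siIGF2BP3 against siC and 0 in siIGF2BP2 against siIGF2BP3. In the same order, 2.47%, 9.00%, 10.6% and 3.15% of all miRNAs tested were called, and with 9 members these counts are near those shares. The median log2 fold changes of the family were 0.12, -0.06, -0.01 and -0.12, beside 0.10, -0.03, 0 and 0 over all miRNAs tested. The called member, miR-98-5p, averaged 4851 ± 240 in siIGF2BP2 (SD, n = 3) and 6200 ± 161 in siC (SD, n = 2), a log2 fold change of -0.35 ± 0.10 (SE, limma adjusted p = 0.0382). Of all miRNAs tested, 7.76% were called lower in that comparison. Relative to the median of the 313 miRNAs it lay at -0.39 as deposited and at -0.39 under upper-quartile scaling, which moved that median to 0.52 and the fold change to 0.13. Its call was lost whichever library of either group was left out, with limma adjusted p = 0.0599 to 0.124 for the siIGF2BP2 libraries. It was also lost without the filter on low values (limma adjusted p = 0.0560) and in a fit of the 2 groups alone (limma adjusted p = 0.0544). Under upper-quartile scaling miR-98-5p was not called either (limma adjusted p = 0.647). Leaving out 1 library of either group kept the fold change between -0.39 and -0.32.

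The miR-200 family, which keeps cells epithelial, was at or near 0. Its 5 members together had 2 or 3 reads per siIGF2BP1 library, 2 to 6 per siIGF2BP2 library, 2 to 7 per siIGF2BP3 library and 0 or 3 per siC library. Of these, miR-141-3p and miR-200c-3p had 15 and 12 reads over all libraries, and miR-429 had 0. Only 3 members passed the filter on low values, and 0 of these were called by limma in the 4 comparisons, where 2.47% to 10.6% of all miRNAs were called. With 3 members near 0 reads, this count says little about the family. miR-451a, which matures without Dicer, was read mainly in siIGF2BP1 and siC. Its means were 110 ± 146 in siIGF2BP1 (SD, n = 2), 0.636 ± 1.10 in siIGF2BP2 (SD, n = 3) and 1.58 ± 1.37 in siIGF2BP3 (SD, n = 3), against 364 ± 419 in siC (SD, n = 2). The SD of miR-451a exceeds its mean in siIGF2BP1, siIGF2BP2 and siC. This miRNA is among the blood cell miRNAs whose values are given above.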

How the data were processed

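Small RNA libraries were made from TRIZOL-extracted total RNA with an Illumina TruSeq small RNA kit and size selection, per the labels' protocols. Per the submitters' processing notes, hg19 was the genome build, and cutadapt 1.6, featureCounts 1.4.6, Bowtie2 2.2.4 and edgeR 3.12 were used. No source used here gives their settings or the miRNA annotation. The table as deposited holds a normalised signal per library, made by the authors. All values were whole multiples of 1 read (tolerance 0.01 reads). It also gives the authors' log2 fold changes, p-values and false discovery rates. Which control sample each control column belongs to is unknown, and the columns are called siC C2 and siC C3. Columns of other samples left unused numbered 0.

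Rows of 1 name were summed. All values were fitted with limma 3.58.1 (R 4.3.3, intensity trend, log2(value + 1), 4 groups in 1 fit, values of 1 or more in 2 or more libraries, Benjamini-Hochberg threshold 0.05). The edgeR 4.0.16 and DESeq2 1.42.0 tests on recovered reads were alternatives. Shares were compared with exact permutation tests (scipy 1.17.1). Opposite-strand overlaps were read from RefSeq mature miRNAs on GRCh38.p14 for which genes neighbour each other, and 2262 names matched. Replicates were distinct libraries, with a chi-square of 6.80 to 38.7 per degree of freedom between them. The members, lists, tests and the rule for named miRNAs (both members, their hairpin arms, list members by abundance or call, nearest profiles and ranks) were chosen with earlier results of these data known.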

Additional observations from a re-analysis of the deposited data

How the results depend on the processing

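No fold change of miR-103a-3p and no ratio of the pair could be computed under any alternative, since both rows hold 0. For miR-107, leaving out 1 library gave log2 fold changes of -0.17 to 0.14 (siIGF2BP1 against siC), 0.13 to 0.20 (siIGF2BP2 against siC), 0.07 to 0.19 (siIGF2BP3 against siC) and -0.030 to 0.10 (siIGF2BP2 against siIGF2BP3), none of them called. The sign turned in siIGF2BP1 against siC, to 0.14 without siIGF2BP1 replicate 1 and 0.02 without siC C2, and in siIGF2BP2 against siIGF2BP3, to -0.030 without siIGF2BP3 replicate 3. Upper-quartile scaling gave log2 fold changes of 0.64, 0.71 and -0.070 in the last 3 comparisons, the first 2 called, while the medians moved with them. Other scalings, pseudocounts of 0.1 and 5, filters, edgeR and DESeq2 left miR-107 uncalled with the direction kept in every comparison. Differences in share without 1 library ran from -0.0103 to 0.00428, 0.00239 to 0.00923, 0.00221 to 0.00905 and -0.00241 to 0.00149 percentage points in the same order, and the first genomic copy alone gave -0.000608 in siIGF2BP2 against siIGF2BP3. For miR-98-5p in siIGF2BP2 against siC, the upper quartile gave 0.13, with the median of the 313 miRNAs at 0.52, so that it stayed at -0.39 relative to the median.

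The number of called miRNAs was 22 in siIGF2BP1 against siC, and 10 with the upper quartile, 52 with a mean value of at least 10, 10 in a fit of the 2 groups alone, 42 with edgeR, 36 with DESeq2 and 2 to 16 without 1 library. It was 80 in siIGF2BP2 against siC, and 158 with the upper quartile, 49 with a mean value of at least 10, 52 with edgeR and 53 to 64 without 1 library. It was 94 in siIGF2BP3 against siC, and 203 with the upper quartile and 70 to 89 without 1 library. It was 28 in siIGF2BP2 against siIGF2BP3, and 17 with the upper quartile and 14 to 22 without 1 library. With a replicate block it was 5, and miR-107 stayed at 0.05 (limma adjusted p = 0.961). Same-numbered siIGF2BP2 and siIGF2BP3 libraries did not deviate together (correlations over 313 miRNAs of -0.12, -0.16 and -0.04). With 3 libraries per group, this cannot show whether same-numbered libraries share a culture or a batch. The counts with a mean value of at least 10 are out of 313 miRNAs, against 889 in the main fit, so they compare as shares only. The counts in a 2-group fit and under the block were added after seeing the data. The cause of these changes was not tested. miR-107 had 305 to 679 reads per library, and its spread within groups exceeded counting error (chi-square 5.10 per degree of freedom).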
